A study of Mus musculus with 18 samples.

Results

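The 9 genes described here encode the core of the G1 switch upstream of the retinoblastoma proteins: the D-type cyclins Ccnd1, Ccnd2 and Ccnd3, their kinases Cdk4 and Cdk6, and the INK4 inhibitors of those kinases, Cdkn2a, Cdkn2b, Cdkn2c and Cdkn2d. They were chosen by symbol, each matched 1 row of the 55450 genes in the deposited count file, and all 9 passed the filter on low counts that left 19186 genes for testing. RNA was sequenced from 15 mammary tumors and 3 normal mammary glands of 18 C57Bl/6 females, 1 library per mouse. B1/P/Rbf tumors (n = 5) came from Brca1fl/fl/Trp53fl/fl/TgK18GT121Tg/+ mice, B1/P tumors (n = 5) from Brca1fl/fl/Trp53fl/fl mice, P/Rbf tumors (n = 5) from Trp53fl/fl/TgK18GT121Tg/+ mice, and the normal glands (n = 3) from wild type mice. All tumors therefore arose on floxed Trp53, and recombination was started by Cre-expressing adenovirus injected into the ducts of adult glands. The virus carried Cre under the CMV promoter, which is not specific to a cell type. The TgK18GT121 transgene, which the keratin 18 promoter drives in epithelial cells, makes T121, a fragment of SV40 large T antigen that binds and inactivates pRb, p107 and p130, and it was not among the rows of the count file. Ages at collection were not given in the sources used here.

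In the textbook order of the pathway, mitogens raise a D-type cyclin, the cyclin binds CDK4 or CDK6, and the active kinase phosphorylates pRb, p107 and p130 so that they release E2F transcription factors. INK4 proteins bind CDK4 and CDK6 and keep the D-type cyclins off. Cyclin D1 is required for the growth of mammary lobules in pregnancy and is among the genes often amplified in human breast cancer. T121 acts on the last step, below the cyclins, the kinases and the INK4 proteins. The comparison of T121 tumors with B1/P tumors thus asks how the genes above the retinoblastoma proteins stand when those proteins are blocked, and the comparison of paralogs asks whether a low member of a family goes with a high one. P/Rbf tumors differ from B1/P tumors in floxed Brca1 as well. Only B1/P/Rbf against B1/P tumors differs by label in T121 alone.

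Total expected counts per library ranged from 27661173 to 37794889. Levels are given as CPM, counts scaled to library size with TMM factors, and the 9 genes had from 11 to 38448 counts in a library, the lowest being those of Cdkn2a in the glands. Trp53, the gene floxed in every tumor, averaged 10.8 ± 1.96 CPM in P/Rbf, 14.8 ± 7.48 in B1/P and 14.7 ± 4.68 in B1/P/Rbf tumors, against 61.5 ± 9.16 in the glands (SD). Brca1 averaged 15.3 ± 8.78 CPM in B1/P and 29.8 ± 8.97 in B1/P/Rbf tumors, against 79.0 ± 32.7 in P/Rbf tumors, where the gene was not floxed, and 5.45 ± 0.735 in the glands. The highest B1/P/Rbf tumor, at 45.0 CPM, reached the lowest P/Rbf tumor, at 44.9. The gland libraries also held RNA of other tissues: the summed CPM of 8 skeletal muscle markers was 25411 to 49745 and that of 8 adipocyte markers 20408 to 26666, against at most 708 and 334 in any tumor. Summed CPM of 8 lymphocyte markers was 435 to 600 in the glands and 2.41 to 33.5 in the tumors. The 8 luminal markers reached 812 to 3429 CPM in B1/P tumors and 3445 to 12952 in T121 tumors, and 7 basal and myoepithelial markers 362 to 2189 CPM in B1/P tumors, 52.99 to 337 in B1/P/Rbf and 75.9 to 1453 in P/Rbf tumors. These are bulk tissues, in which fewer cells of a type and less RNA per cell cannot be told apart, and the part of these cell types in the results that follow was not tested.

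A split of the libraries into 2 sets was inferred from the study's supplementary fold changes and is uncertain, since no label, header or method names it and the methods describe 1 sequencing pool of all 18 libraries: 1 with B1/P tumors 225068, 225070 and 246361 beside the whole B1/P/Rbf group, and 1 with the other 10 libraries. Only the B1/P tumors lie in both, so B1/P/Rbf tumors and glands, or both T121 groups, meet across the sets through B1/P tumors alone. Values from a fit with a term for these inferred sets are given below, as an alternative, where they end a call or turn a direction.

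Between tumor genotypes, 4 of the 9 genes were called in both groups of T121 tumors against B1/P tumors: Ccnd1, Ccnd2 and Cdk6 were lower and Cdkn2c was higher. Cdkn2a and Cdkn2d were called in P/Rbf tumors alone, and Ccnd3, Cdk4 and Cdkn2b in neither group, which does not test a difference between the groups. A call is an adjusted p of 0.05 or less in edgeR's quasi-likelihood test with Benjamini-Hochberg adjustment over all genes tested. Set against the B1/P group, the B1/P/Rbf group had 4 of the 9 called, 1 higher and 3 lower, where 16.7% of the 19186 genes tested passed, 7.36% higher and 9.29% lower. The same 4 genes did not overlap between those groups, against 10.5% of all genes. For P/Rbf against B1/P, 6 of the 9 were called, 3 higher and 3 lower, where 19.2% of all genes were called, 8.43% higher and 10.8% lower, and 4 members did not overlap against 8.86% of genes. With the term for the inferred library sets, 3 of the 9 were called there, Cdk6, Cdkn2a and Cdkn2d no longer passing, and 2008 of all genes. P/Rbf and B1/P/Rbf tumors differ by label in floxed Brca1, but each group lies wholly in 1 of the inferred sets, so that genotype and set cannot be told apart within these 10 tumors. Between them 0 of the 9 were called by edgeR, where 0.281% of all genes passed (0.219% were higher with Brca1 floxed, 0.0625% lower). Of the 9, 0 were called by DESeq2, against 5.29% of all genes, and 0 by edgeR on omission of any 1 mouse, against 9 to 131 genes. An unadjusted p under 0.05 was found for 3 of the 9 (Ccnd1, Cdkn2a and Cdkn2b) and 16.1% of all genes, and 0 of the 9 were without overlap, against 3.02%.

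Against the normal glands, 5 of the 9 genes were called in B1/P/Rbf tumors, 3 higher and 2 lower, where 37.0% of all genes were called, 17.1% higher and 20.0% lower, and 7 members did not overlap against 50.5% of genes. With the library-set term 3 of the 9 were called, Ccnd2 and Cdkn2b no longer passing, where 3879 of the 19186 genes tested were called. In B1/P tumors 6 were called, 5 higher and 1 lower, where 33.8% of all genes were called, 16.8% higher and 16.9% lower, and 6 members did not overlap against 41.4%. In P/Rbf tumors 5 were called, 4 higher and 1 lower, where 37.7% of all genes were called, 17.4% higher and 20.3% lower, and 4 members did not overlap against 46.5%. All 3 of those comparisons share the same 3 glands, and both T121 comparisons share the same 5 B1/P tumors.

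**Figure D1:**
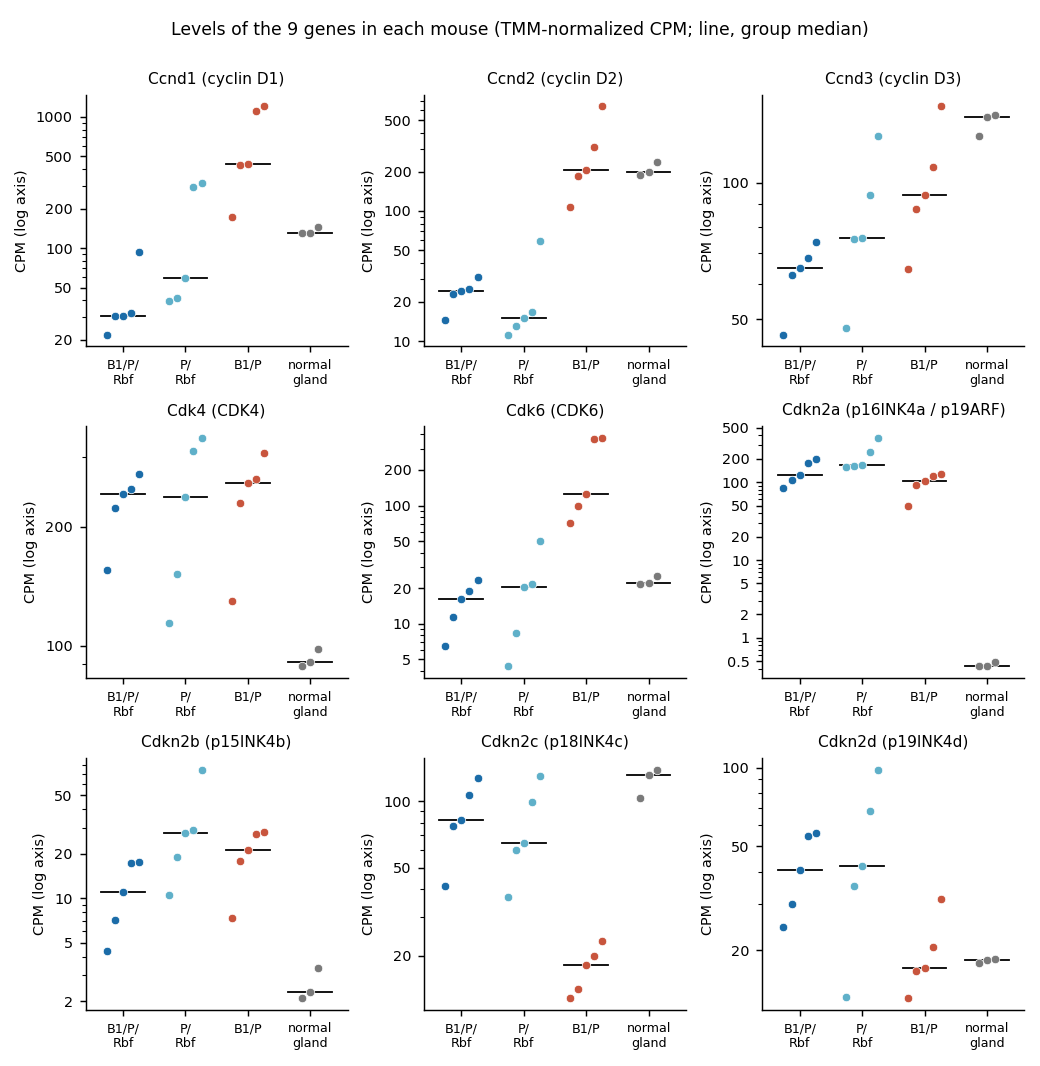
TMM-normalized CPM (log axes) of the 9 genes in each of the 18 mice by genotype, with 1 point per mouse and a line at the group median. B1/P tumors sit above all T121 tumors for Ccnd2 and Cdk6 and below all of them for Cdkn2c, and the 3 glands lie below every tumor for Cdk4, Cdkn2a and Cdkn2b.

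Ccnd1 encodes cyclin D1 (ENSMUSG00000070348.5, chr7:144929931-144939925 on GRCm38, minus strand, overlapping LTO1 on the plus strand). Its level was 31.8, 21.8, 30.4, 93.6 and 30.1 CPM in the 5 B1/P/Rbf tumors, while the 5 B1/P tumors held 434, 429, 173, 1109 and 1212 CPM. Every B1/P/Rbf tumor lay below every B1/P tumor. The fitted difference was -4.01 on the log2 scale, or 16.2-fold (SE 0.715, edgeR adjusted p = 0.00172). The P/Rbf tumors fell into 2 ranges, with 293 CPM in tumor 287842 and 314 CPM in tumor 287845 but 58.7, 39.3 and 41.5 CPM in the other three. Those high tumors overlapped the lowest B1/P tumor, and the difference of P/Rbf from B1/P tumors was -2.17 on the log2 scale (SE 0.660, edgeR adjusted p = 0.0299). This call was lost without B1/P tumor 255232 or 248662 or without P/Rbf tumor 290860, 287822 or 290845, with an adjusted p of up to 0.0683, and when the fit held only those 2 groups (adjusted p = 0.0881). The glands held 131, 131 and 144 CPM, below every B1/P tumor and above every B1/P/Rbf tumor. B1/P tumors were higher than the glands by 2.31 on the log2 scale (SE 0.809, adjusted p = 0.0357), a call that was lost without tumor 255232 or 248662 or without any 1 of the 3 glands, with an adjusted p of up to 0.105. B1/P/Rbf tumors differed from the glands by -1.70 on the log2 scale and did not pass (adjusted p = 0.0716), although without tumor 209490 the value was -2.24 and passed (adjusted p = 0.0253). It also passed in 4 of 7 other settings, with DESeq2 (adjusted p = 0.0447), limma-voom (0.0486), the study's filter (0.0271) and only the groups compared (0.0110). With the library-set term it turned to 0.047 (adjusted p = 0.988). P/Rbf tumors differed from the glands by 0.14 on the log2 scale (adjusted p = 0.894).

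Ccnd2 encodes cyclin D2 (ENSMUSG00000000184.12, chr6:127125162-127152193, minus strand). It held 31.1, 25.3, 23.0, 14.4 and 24.1 CPM in B1/P/Rbf tumors. P/Rbf tumors held 13.1, 15.0, 58.7, 11.2 and 16.6 CPM, where 58.7 was tumor 290860. In B1/P tumors it held 185, 107, 208, 641 and 310.4 CPM, and in the glands 199, 189.7 and 237 CPM. All 10 T121 tumors lay below all 5 B1/P tumors and all 3 glands. The log2 difference from B1/P tumors was -3.62 in B1/P/Rbf (SE 0.520, edgeR adjusted p = 0.00048) and -3.66 in P/Rbf tumors (SE 0.521, adjusted p = 0.000474), or 12.3-fold and 12.7-fold. Against the glands the log2 differences were -3.15 (adjusted p = 0.000264) and -3.19 (adjusted p = 0.000225). With the library-set term the B1/P/Rbf value was -1.63 and did not pass (adjusted p = 0.140). B1/P tumors and glands overlapped, with a log2 difference of 0.48 (adjusted p = 0.530) that turned to -0.042 without tumor 255232. Ccnd2 overlaps Gm43126 and 9330179D12Rik on the plus strand. Of 6 other genes with a start within 250 kb, only 9330179D12Rik was called lower in each T121 group than in B1/P tumors, where 9.29% and 10.8% of all genes were lower. Against the glands 3 of the 6, this gene among them, were lower in each T121 group and 1 was higher. Its part in the Ccnd2 count was not tested. Lymphocytes, whose markers were 435 to 600 CPM in the glands, use cyclin D2 and cyclin D3, and their part in the gland levels was not tested.

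Ccnd3 encodes cyclin D3 (ENSMUSG00000034165.16, chr17:47505051-47599691, plus strand) and had the narrowest range of the D-type cyclins. It ranged from 46.3 to 74.1 CPM in B1/P/Rbf tumors (median 64.9), from 47.8 to 127 in P/Rbf tumors (median 75.7) and from 64.5 to 148 in B1/P tumors (median 94.0), and the 3 tumor groups overlapped. The glands held 127, 139 and 141 CPM. All B1/P/Rbf tumors lay below the glands, with a log2 difference of -1.10 (SE 0.274, edgeR adjusted p = 0.00474). The B1/P/Rbf group differed from B1/P tumors by -0.67 on the log2 scale (adjusted p = 0.0690, passing in 3 of 7 other settings), and that of P/Rbf from B1/P tumors -0.26 (adjusted p = 0.473). P/Rbf tumors and glands differed by -0.69 (adjusted p = 0.0565, passing in 4 of 7 other settings with adjusted p from 0.00475 with the study's filter to 0.0465 with the library-set term). Ccnd3 was thus not called higher in any comparison in which Ccnd1 or Ccnd2 was lower.

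Cdk4 encodes the kinase that pairs with all D-type cyclins (ENSMUSG00000006728.12, chr10:127063534-127067920, plus strand). B1/P tumors held 258, 265, 129.6, 230.4 and 307 CPM, B1/P/Rbf tumors 249.8, 155, 273, 242 and 223 CPM, and P/Rbf tumors 311, 152, 336, 114 and 238 CPM. The glands held 88.7, 98.2 and 90.9 CPM, below all 15 tumors. The fold over the glands was 2.47 in B1/P/Rbf (log2 SE 0.341, edgeR adjusted p = 0.0066), 2.57 in B1/P (SE 0.342, adjusted p = 0.00569) and 2.48 in P/Rbf (SE 0.341, adjusted p = 0.00613). Between tumor genotypes the differences were -0.06, -0.05 and -0.01 on the log2 scale, each with an SE of 0.281, and they turned sign when single tumors were left out. The 16 proliferation markers were also all higher in each tumor group than in the glands, with a summed level of 296 to 319 CPM in the glands and 1508 to 5799 in the tumors.

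The promoter of Cdk4 is shown because it held more copies of the letters CACGTG, the E-box that MYC and related factors bind, than those of the other members with an entry. The RefSeq window on GRCm38.p6, 250 bases before to 50 after the start (chr10:127063285-127063584, plus strand), is printed 5′ to 3′ with the matches in capitals.

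Cdk4: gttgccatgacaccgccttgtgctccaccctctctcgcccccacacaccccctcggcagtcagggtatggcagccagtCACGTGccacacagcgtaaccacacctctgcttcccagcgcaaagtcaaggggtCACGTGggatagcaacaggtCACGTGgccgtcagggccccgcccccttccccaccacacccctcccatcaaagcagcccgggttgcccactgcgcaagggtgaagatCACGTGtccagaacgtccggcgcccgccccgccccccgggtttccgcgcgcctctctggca

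It has 4 matches, counted on both strands (the letters read the same on each). Among 32851 RefSeq windows of 300 bases, 7.15% held at least 1 match and 8 windows (0.0244%) held 4 or more. The Cdk6 window and 1 of the 2 Cdkn2c windows held 1 match each. Of the 9 genes, 7 had an entry, and Ccnd1 and Ccnd2 had none. Myc itself was not called in any of the 6 comparisons. A match in this window is a description of the letters and was not tested against binding.

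Cdk6 encodes the second kinase (ENSMUSG00000040274.11, chr5:3341485-3531008, plus strand), and unlike Cdk4 it separated B1/P tumors from both T121 groups, which overlapped each other. It held 363, 125, 374, 99.5 and 70.9 CPM in B1/P tumors, 23.6, 11.4, 16.2, 6.44 and 18.99 CPM in B1/P/Rbf tumors and 50.4, 21.8, 20.4, 8.29 and 4.36 CPM in P/Rbf tumors. The lowest B1/P tumor was above the highest T121 tumor. The log2 difference from B1/P tumors was -3.75 in B1/P/Rbf (SE 0.634, edgeR adjusted p = 0.00128) and -3.29 in P/Rbf tumors (SE 0.621, adjusted p = 0.00243), or 13.5-fold and 9.80-fold. The glands held 25.6, 22.3 and 21.6 CPM, within the range of the P/Rbf tumors. B1/P tumors were higher than the glands by 3.16 on the log2 scale (SE 0.762, adjusted p = 0.00436), while the T121 tumors did not pass against the glands (-0.60 with adjusted p = 0.4996, and -0.14 with adjusted p = 0.886). With the term for the inferred library sets, the P/Rbf against B1/P and B1/P against gland differences of Cdk6 were -2.02 and 1.88 and no longer passed (adjusted p = 0.0537 and 0.0702). The summed fibroblast markers held 2589 to 12870 CPM in B1/P tumors, 847 to 4800 in B1/P/Rbf and 1285 to 4051 in P/Rbf tumors, and these ranges overlap. Against B1/P tumors, 2 of 9 fibroblast markers were lower in B1/P/Rbf and 4 in P/Rbf tumors, and 2 of 7 basal markers in each, where 9.29% and 10.8% of all genes were lower. The part of these markers in the Cdk6, Ccnd1 and Ccnd2 levels was not tested.

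Cdkn2a (ENSMUSG00000044303.6, chr4:89274471-89294653, minus strand) encodes 2 unrelated proteins from 2 starts: p19ARF, which holds back Mdm2 and so stabilizes p53, from the upstream start at position 89294653, and p16INK4a, the CDK4 and CDK6 inhibitor, from the start at position 89282192. The gene count adds both and cannot tell them apart. Cdkn2a was low in the glands, at 0.430, 0.491 and 0.440 CPM (11, 15 and 13 counts), and high in every tumor. P/Rbf tumors held 244, 167, 158, 160.4 and 371 CPM, B1/P/Rbf tumors 108, 125, 177, 198 and 83.0 CPM, and B1/P tumors 128, 119, 48.8, 104 and 91.8 CPM. The log2 differences from the glands, where few counts set the base, were 8.91 in P/Rbf (SE 0.547, edgeR adjusted p = 2.67e-08), 8.24 in B1/P/Rbf (SE 0.532, adjusted p = 3.85e-08) and 7.75 in B1/P (SE 0.522, adjusted p = 8.79e-08). Every P/Rbf tumor was above every B1/P tumor, with a log2 difference of 1.16 (SE 0.302, adjusted p = 0.0139). With the library-set term that difference was 1.17 and did not pass (adjusted p = 0.0945). The B1/P/Rbf group overlapped B1/P tumors (0.49 on the log2 scale, adjusted p = 0.279). Of 6 genes outside the members with a start within 250 kb, 5 were called higher than the glands in P/Rbf tumors. In B1/P/Rbf tumors 3 were, and in B1/P tumors 2, where 16.8% to 17.4% of all genes were higher. The 2 called in all tumor groups, Gm12609 and Gm12610, had 0 counts in the glands. Mtap and Gm12609 were also called higher in P/Rbf than in B1/P tumors, where 8.43% of all genes were higher.

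Cdkn2b encodes p15INK4b (ENSMUSG00000073802.5, chr4:89306299-89311039, minus strand) and lies next to Cdkn2a. It held 2.31, 2.09 and 3.35 CPM in the glands and 11.0, 7.10, 17.3, 17.7 and 4.35 CPM in B1/P/Rbf tumors. It held 21.3, 27.9, 7.34, 27.3 and 17.8 CPM in B1/P tumors, and 74.7, 27.6, 19.01, 10.5 and 28.9 CPM in P/Rbf tumors. All tumors lay above all glands. The log2 differences were 2.15 in B1/P/Rbf (SE 0.625, edgeR adjusted p = 0.0125, and 0.0806 with the library-set term), 2.97 in B1/P (SE 0.653, adjusted p = 0.00223) and 3.63 in P/Rbf tumors (SE 0.677, adjusted p = 0.000487). No tumor genotypes were called different, and the value farthest from 0, B1/P/Rbf against P/Rbf, was -1.48 on the log2 scale (adjusted p = 0.156).

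The RefSeq promoter windows of this locus are shown because Cdkn2a and Cdkn2b were each called higher than the glands in all 3 tumor groups and one of the starts holds a match to an E2F site (any of TTTCCCGC, TTTGGCGC, TTTCGCGC or TTTGCCGC on either strand, capitals). They are on the minus strand of GRCm38.p6, printed 5′ to 3′: the p19ARF start (chr4:89294570-89294869), the p16INK4a start (chr4:89282143-89282442) and Cdkn2b (chr4:89310983-89311282).

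Cdkn2a, p19ARF start: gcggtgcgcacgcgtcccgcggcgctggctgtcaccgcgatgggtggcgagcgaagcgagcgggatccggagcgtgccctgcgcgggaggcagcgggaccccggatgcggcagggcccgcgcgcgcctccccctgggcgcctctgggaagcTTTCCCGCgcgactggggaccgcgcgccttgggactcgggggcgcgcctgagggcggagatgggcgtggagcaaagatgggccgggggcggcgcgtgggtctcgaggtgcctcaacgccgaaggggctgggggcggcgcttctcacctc

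Cdkn2a, p16INK4a start: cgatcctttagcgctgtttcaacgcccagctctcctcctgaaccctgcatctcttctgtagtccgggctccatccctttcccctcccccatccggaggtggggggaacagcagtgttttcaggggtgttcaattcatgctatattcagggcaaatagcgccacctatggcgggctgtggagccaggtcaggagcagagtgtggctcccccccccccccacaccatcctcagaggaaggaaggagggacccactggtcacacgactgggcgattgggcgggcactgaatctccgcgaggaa

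Cdkn2b: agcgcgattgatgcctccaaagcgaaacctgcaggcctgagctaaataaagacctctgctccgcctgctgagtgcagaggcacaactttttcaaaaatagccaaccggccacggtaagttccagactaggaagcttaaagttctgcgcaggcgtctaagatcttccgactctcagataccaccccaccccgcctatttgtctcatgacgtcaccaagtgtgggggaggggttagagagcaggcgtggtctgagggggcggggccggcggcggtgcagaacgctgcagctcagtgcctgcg

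The p19ARF window holds 1 match, and the letters are not in the other windows of the 7 members that had an entry. Of all 32851 windows, 2.26% held at least 1 match. A match is a description of the letters and no evidence of binding here.

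Cdkn2c encodes p18INK4c (ENSMUSG00000028551.14, chr4:109660876-109667189, minus strand), which is known to restrain luminal progenitor cells in the mammary gland, and was lower than in the glands in B1/P tumors, where Cdkn2a and Cdkn2b were higher. It was lowest in B1/P tumors, at 19.9, 14.2, 12.9, 23.3 and 18.2 CPM. B1/P/Rbf tumors held 127.5, 106.5, 82.1, 41.2 and 77.03 CPM, P/Rbf tumors 60.0, 99.5, 64.6, 129.8 and 36.9 CPM, and the glands 103, 131 and 139 CPM. Every T121 tumor and every gland was above every B1/P tumor. The log2 difference from B1/P tumors was 2.30 in B1/P/Rbf (SE 0.333, edgeR adjusted p = 0.000528) and 2.14 in P/Rbf tumors (SE 0.332, adjusted p = 0.000804), or 4.91-fold and 4.42-fold, and B1/P tumors were 7.03-fold lower than the glands (-2.81 on the log2 scale, SE 0.365, adjusted p = 2.27e-05). All 7 alternatives to that fit and every omission of 1 mouse kept these 3 calls. T121 tumors did not pass against the glands (-0.52 with adjusted p = 0.278, and -0.67 with adjusted p = 0.155). Of 3 other genes with a start within 250 kb, 2 were also called higher in each T121 group than in B1/P tumors, Faf1 and 9630013D21Rik, where 7.36% and 8.43% of all genes were higher. All 3 were called lower in B1/P tumors than in the glands, where 16.9% of all genes were lower.

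Cdkn2d encodes p19INK4d (ENSMUSG00000096472.2, chr9:21288410-21291407, minus strand). It held 24.5, 54.7, 30.1, 40.5 and 56.0 CPM in B1/P/Rbf tumors and 13.3, 68.4, 35.1, 98.3 and 41.9 CPM in P/Rbf tumors. B1/P tumors held 13.1, 17.1, 20.6, 16.6 and 31.5 CPM and the glands 17.8, 18.5 and 18.3 CPM. P/Rbf tumors were called higher than B1/P tumors (1.38 on the log2 scale, SE 0.404, edgeR adjusted p = 0.0254) and the glands (2.82-fold, log2 SE 0.487, adjusted p = 0.0227), although tumor 287842 at 13.3 CPM lay below all the glands. Both calls rest on few libraries: the first was lost with the library-set term (adjusted p = 0.222), with limma-voom (0.0895), with only the groups compared (0.0839) and without P/Rbf tumor 287845 or 287822 or B1/P tumor 225068 or 255232, with an adjusted p of up to 0.0768 in these omissions, and the second with only the groups compared (adjusted p = 0.0599) and without tumor 287822 or any 1 of the 3 glands, with an adjusted p of up to 0.0706. B1/P/Rbf tumors stood 2.08-fold above B1/P tumors (adjusted p = 0.0798) and 2.26-fold above the glands (adjusted p = 0.0633), neither called, although all 5 lay above the 3 glands. Among the other settings, the difference from B1/P tumors passed with only the groups compared (adjusted p = 0.0452). That from the glands passed with DESeq2 (adjusted p = 0.0400), without TMM (0.0193) and with only the groups compared (0.0111). B1/P tumors and glands differed by 0.12 on the log2 scale (adjusted p = 0.865).

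**Figure D2:**
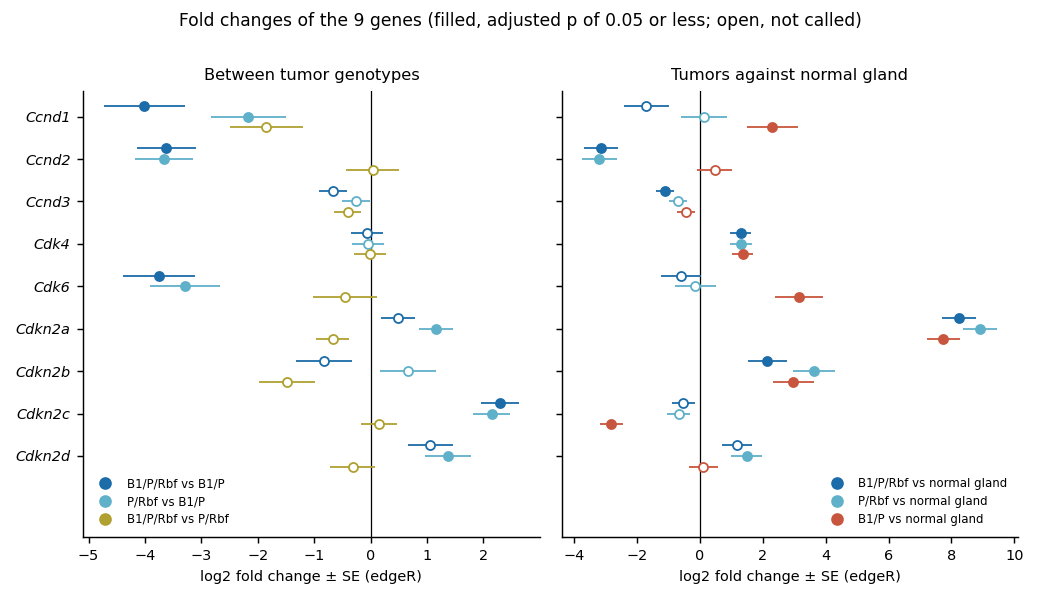
Log2 fold changes with standard errors from edgeR for the 9 genes in the 6 comparisons, tumor against tumor on the left and tumor against gland on the right. Filled points passed an adjusted p of 0.05. Ccnd1, Ccnd2 and Cdk6 lie from -4.01 to -2.17 in both T121 groups against B1/P tumors, and Cdkn2a lies from 7.75 to 8.91 against the glands.

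To compare paralogs without the library size, their log2 ratio was taken within each library and compared by exact two-sided permutation tests, 6 ratios in 6 comparisons, with Benjamini-Hochberg adjustment over the 36. The smallest p that 5 tumors against 5 allow is 0.00794, and 5 against 3 allow 0.0179. Of the 36 tests 13 passed, all with an adjusted p of 0.0495, just under the threshold. The 36 were then repeated without each mouse in turn. None passed in 17 of 18 omissions (lowest adjusted p of 0.0536 to 0.0714), and 6 of the 13 passed without B1/P tumor 246361. Leaving out a mouse can raise the smallest p against the glands, but does not raise it between tumor groups. Omitting a gland changes no exact p between tumor groups, yet those calls also missed the threshold, with a lowest adjusted p of 0.0571. There the adjustment over the 36 alone moved them. The lost calls thus do not show that a ratio rests on single mice. The Ccnd2/Ccnd3 log2 ratio was -2.11 ± 0.857 in P/Rbf, -1.45 ± 0.456 in B1/P/Rbf, 1.32 ± 1.17 in B1/P tumors and 0.62 ± 0.156 in the glands (SD). Ccnd2 was thus lower against Ccnd3 in T121 tumors, by -2.76 and -3.43 on the log2 scale against B1/P tumors (exact p = 0.00794 each, adjusted p = 0.0495) and by -2.06 and -2.72 against the glands (exact p = 0.0179 each, adjusted p = 0.0495). The Ccnd1/Ccnd3 log2 ratio was -0.80 ± 0.774 in B1/P/Rbf and 2.46 ± 1.55 in B1/P tumors, a difference of -3.26 (exact p = 0.0159, adjusted p = 0.0495). In P/Rbf tumors that ratio was 0.29 ± 1.64, and it did not pass against B1/P tumors (exact p = 0.0556, adjusted p = 0.0952). The Ccnd1/Ccnd2 ratio did not pass in any of the 6 comparisons (exact p from 0.0536 to 0.460).

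The Cdk4/Cdk6 log2 ratio was 4.00 ± 0.727 in B1/P/Rbf, 3.79 ± 1.25 in P/Rbf, 0.48 ± 1.46 in B1/P tumors and 2.00 ± 0.182 in the glands. At these means Cdk4 had 16.0 times the CPM of Cdk6 in B1/P/Rbf tumors and 1.39 times in B1/P tumors, and in 2 B1/P tumors, 225068 and 246361, Cdk6 had the higher CPM. CPM does not allow for gene length, and Cdk6 is the longer gene. Per kb of exon Cdk4 was above Cdk6 in both tumors, at 79.4 against 25.9 and 39.9 against 26.7 CPM. T121 tumors differed from B1/P tumors by 3.52 and 3.32 (exact p = 0.00794 each, adjusted p = 0.0495). With only the 2 B1/P tumors of the same library set, the P/Rbf difference was 2.13 (exact p = 0.143). B1/P/Rbf tumors differed from the glands by 2.00 (exact p = 0.0179, adjusted p = 0.0495). The Cdkn2a/Cdkn2b log2 ratio was 3.69 ± 0.450 in B1/P/Rbf, 2.99 ± 0.890 in P/Rbf, 2.34 ± 0.331 in B1/P tumors and -2.31 ± 0.404 in the glands. It was higher than in the glands by 6.01, 5.31 and 4.65, in that order (exact p = 0.0179 each, adjusted p = 0.0495), and B1/P/Rbf tumors stood above the B1/P group by 1.36 (exact p = 0.00794, adjusted p = 0.0495). The Cdkn2c/Cdkn2d log2 ratio was 2.75 ± 0.204 in the glands and -0.13 ± 0.645 in B1/P tumors, a difference of -2.88 (exact p = 0.0179, adjusted p = 0.0495), with 0.76 ± 0.877 in P/Rbf tumors and 0.027 to 2.38 in the 5 B1/P/Rbf tumors. No ratio passed between the T121 groups (exact p from 0.135 to 0.714), which does not show that they are alike.

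**Figure D3:**
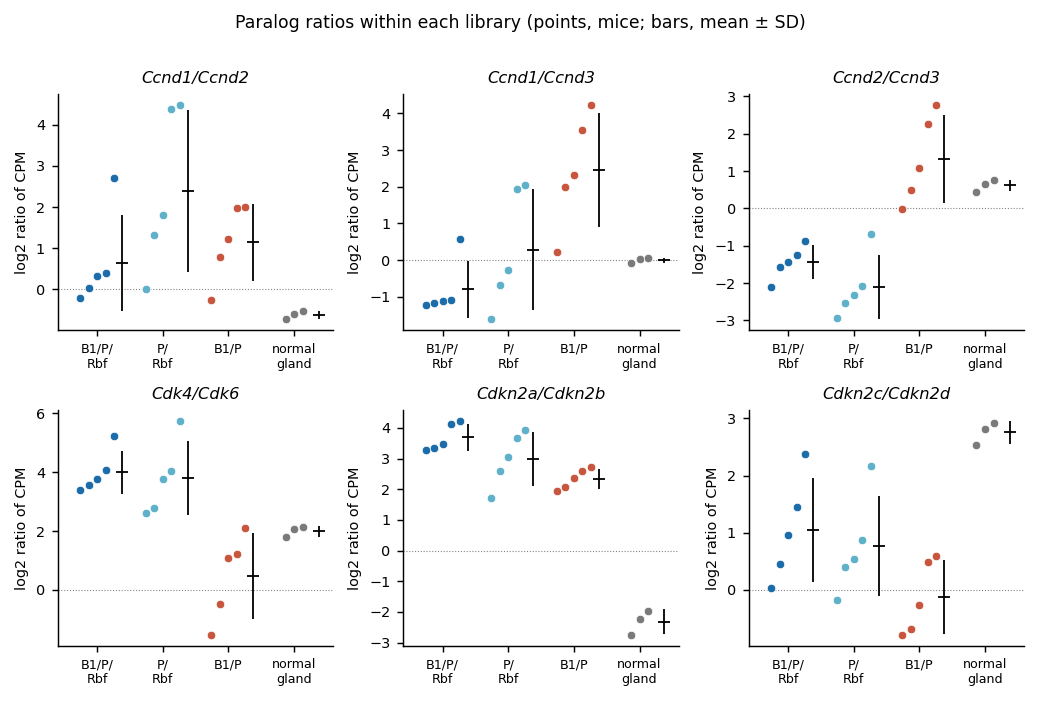
Log2 ratio of CPM of 6 paralog pairs within each library, with 1 point per mouse and bars for the group mean and SD. T121 tumors lie below 0 for Ccnd2/Ccnd3 and above 2.6 for Cdk4/Cdk6, and the glands lie below 0 for Cdkn2a/Cdkn2b, where all tumors lie above 1.7.

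Levels of different genes were compared per kb of exon, the union of the annotated exons of each gene. The 3 D-type cyclins summed to 18.5 ± 5.98 CPM per kb in B1/P/Rbf, 43.7 ± 28.7 in P/Rbf, 185 ± 112 in B1/P tumors and 66.3 ± 4.69 in the glands (SD, no test). All B1/P/Rbf tumors (12.6 to 28.5) lay below all glands (63.4 to 71.8) and all B1/P tumors (75.6 to 314), so the lower Ccnd1 and Ccnd2 levels were not made up by Ccnd3 in the sum. The sum for P/Rbf tumors ran from 15.0 to 76.9, the highest values being the 2 tumors with high Ccnd1. Ccnd1 gave 73.0% of the sum in B1/P and 44.1% in B1/P/Rbf tumors, and Ccnd3 9.42% and 40.9%. The order of the cyclins depends on the length used, since Ccnd3 has long alternative exons: per kb of the longest coding transcript, Ccnd3 gave 67.8% in B1/P/Rbf, 54.1% in P/Rbf, 23.0% in B1/P tumors and 48.2% in the glands, and Ccnd1 23.4% in B1/P/Rbf and 60.6% in B1/P tumors. At that length all P/Rbf sums (34.9 to 122) also lay below all glands (126 to 143). Cdk4 gave 98.5% of the CDK4 and CDK6 sum in B1/P/Rbf, 97.9% in P/Rbf, 82.2% in B1/P tumors and 94.5% in the glands, and as little as 59.9% in 1 B1/P tumor. The 4 INK4 genes summed to 184 ± 34.9 CPM per kb in B1/P/Rbf, 273 ± 68.4 in P/Rbf, 118 ± 30.8 in B1/P tumors and 60.1 ± 7.50 in the glands. Their make-up changed from gland to tumor: Cdkn2c gave 76.8% of the sum and Cdkn2a 0.650% in the glands, while Cdkn2a gave 62.3% to 70.4% and Cdkn2c 5.81% to 18.5% in the 3 tumor groups. The Cdkn2a part includes transcripts of p19ARF, which is not an INK4 protein, so the share of p16INK4a cannot be read from it.

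**Figure D4:**
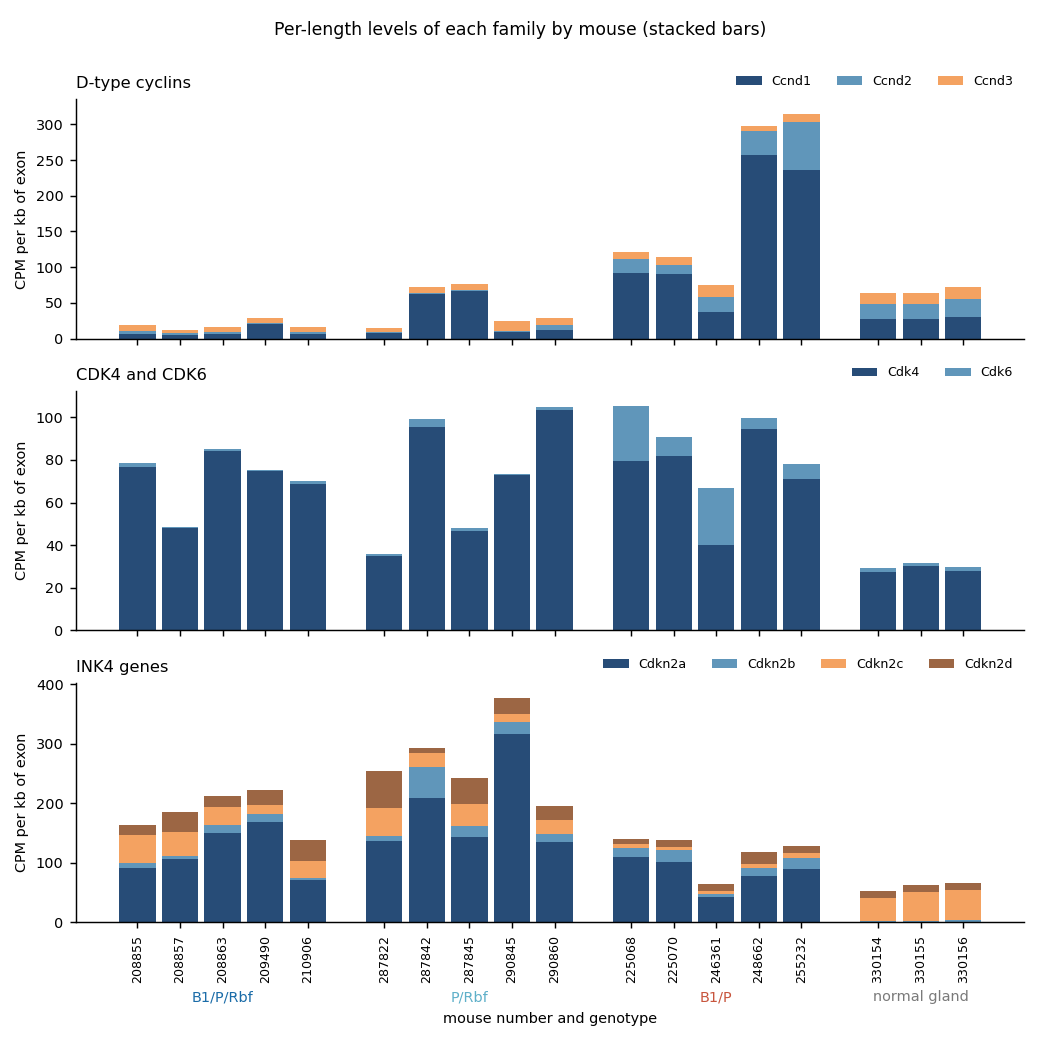
CPM per kb of exon of each gene in every mouse, stacked by family (D-type cyclins, CDK4 and CDK6, INK4 genes) and grouped by genotype. The cyclin bars of 4 B1/P tumors stand above those of all other mice, the Cdk6 part is visible mainly in B1/P tumors, and Cdkn2c fills most of the INK4 bars in the glands.

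Whether a tumor low in one paralog was high in another was examined across the 15 tumors, each gene centred on its genotype mean so that genotype differences drop out. Cdkn2a and Cdkn2b rose and fell together (Pearson r = 0.755, permutation p = 0.00534, adjusted p = 0.032 over 6 relations; Spearman rho = 0.811, permutation p = 0.0019, adjusted p = 0.0114). Without the 2 tumors farthest from the median Cdkn2a level, r was 0.784. In the 10 T121 tumors alone r was 0.683 (permutation p = 0.0515, adjusted p = 0.309 over 6 relations), and rho was 0.770 (permutation p = 0.0184, adjusted p = 0.111). None of the other 5 pairs passed: r was 0.02 for Ccnd1 with Ccnd2, -0.30 for Ccnd1 with Ccnd3, 0.10 for Ccnd2 with Ccnd3, 0.04 for Cdk4 with Cdk6 and 0.26 for Cdkn2c with Cdkn2d, with permutation p from 0.372 to 0.946. An inverse relation between paralogs within genotypes was thus not detected with 15 tumors. All genes of one library share its scaling and its mixture of cells.

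**Figure D5:**
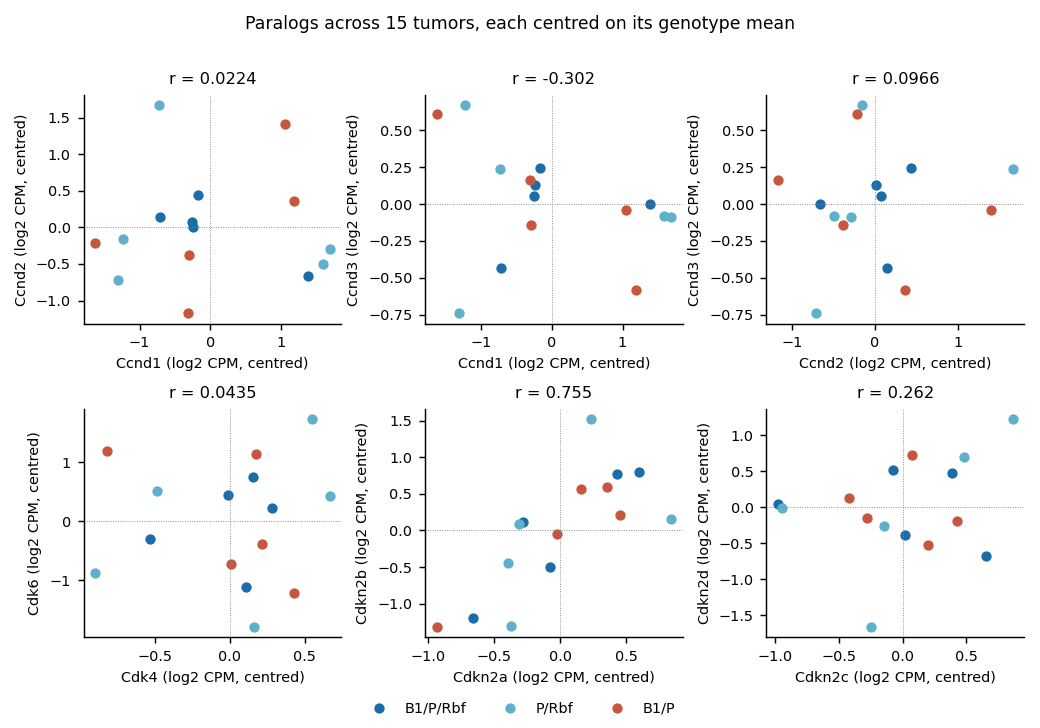
Log2 CPM of 6 paralog pairs in the 15 tumors, each centred on its genotype mean, with 1 point per tumor and Pearson r above each panel. The Cdkn2a and Cdkn2b points run from lower left to upper right, and the other 5 pairs show no such line.

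The rest of the pathway was read from lists of genes by their textbook role. As background, B1/P/Rbf against B1/P tumors had 7.36% of all genes higher and 9.29% lower, P/Rbf against B1/P tumors 8.43% and 10.8%, and the 3 tumor groups against the glands 16.8% to 17.4% higher and 16.9% to 20.3% lower. Of the 3 pocket protein genes, Rbl1 (p107) was higher and Rbl2 (p130) lower in both T121 groups than in B1/P tumors, by 1.07 and -1.15 on the log2 scale in B1/P/Rbf (edgeR adjusted p = 0.0221 and 0.00669) and by 1.23 and -1.26 in P/Rbf tumors (adjusted p = 0.0100 and 0.00391). Rb1 itself was lower in all 3 tumor groups than in the glands, by -1.60 in B1/P, -1.33 in B1/P/Rbf and -0.93 in P/Rbf. Of 3 Cip/Kip inhibitor genes, Cdkn1a (p21) was higher in both T121 groups than in B1/P tumors, by 1.60 and 1.35. Of 6 genes of cyclin E, cyclin A, CDK2 and CDC25A, which act after the restriction point, 4 were higher in P/Rbf and 2 in B1/P/Rbf tumors than in the B1/P group, led by Ccne2 (1.26) and Ccna2 (1.37), and 5 were higher in each tumor group than in the glands. Of 10 E2F and DP genes, 0 were higher in the B1/P/Rbf group and 4 in the P/Rbf group than in B1/P tumors, and 6, 5 and 7 were higher in P/Rbf, B1/P and B1/P/Rbf tumors than in the glands, with E2f7 and E2f8 at 2.98 to 4.61 on the log2 scale. In each gland comparison 1 of the 10, E2f6, was lower. Proliferation markers were higher than in B1/P tumors for 7 of 16 genes in the B1/P/Rbf group and 8 in the P/Rbf group.

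Of 8 inducers of D-type cyclins, 4 were called higher in B1/P/Rbf and 3 in P/Rbf tumors than in B1/P tumors, led by Stat5a at 3.05 and 1.95 on the log2 scale, Jun at 1.75 in B1/P/Rbf and Fos at 1.54 in P/Rbf tumors, while Ccnd1 and Ccnd2 were lower there. Of 13 regulators of the INK4/ARF locus, the B1/P/Rbf group had 2 higher and 2 lower than B1/P tumors, and the P/Rbf group 3 higher and 1 lower. Among them Ets2, an activator of p16INK4a, was higher in both T121 groups (1.42 and 1.71), Tbx3, a repressor of p19ARF, was higher in P/Rbf tumors (1.81), and Tbx2, also a repressor of p19ARF, was lower in both (-2.34 and -2.84). Against the glands 6 of the 13 were higher and 1 lower in P/Rbf, 3 higher in B1/P and 5 higher in B1/P/Rbf tumors, and Ezh2, a Polycomb methyltransferase, was higher in every tumor group than in the glands (2.24 in B1/P/Rbf, 1.79 in B1/P, 2.12 in P/Rbf). Of 6 genes of D-type cyclin turnover, Cryab, a partner of the cyclin D1 ubiquitin ligase that is also abundant in muscle, was lower in T121 than in B1/P tumors (-3.10 and -2.85), and Fbxo31, an adaptor of such a ligase, was higher (1.11 and 0.88). In the same comparisons 6 and 7 of the 8 skeletal muscle markers were lower, and B1/P tumor 248662 held a summed 708 CPM of them against 4.72 to 26.8 in the other 14 tumors. Cryab itself averaged 32.4 ± 4.95 CPM in the 5 B1/P tumors, and the part of muscle RNA in its difference was not tested. Of 4 genes of the CDK-activating kinase and the CDK4 chaperone, Cdc37, the chaperone, was higher than in the glands in all 3 tumor groups (0.58, 0.64 and 0.54). Of 4 genes downstream of p19ARF, Trp53 was lower than in the glands in every tumor group, Npm1, a nucleolar partner of p19ARF, was higher in B1/P tumors than in the glands (1.34), and Mdm2 was not called in any comparison.

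The genes whose log2 CPM was most like that of each member over the 18 libraries were found by Pearson's r, given as a description. For Cdk6 they were Ptpn14 (r = 0.951) and Fgfr1 (0.936), for Ccnd2 Tmem35a (0.947) and Rpl37a (0.946), and for Ccnd1 D7Ertd443e (0.896) and Cdh2 (0.887). For Ccnd3 they were Gdf11 (0.842) and Clpp (0.822), and for Cdk4 Gm41409 (0.938) and Ppip5k2 (0.903). For Cdkn2a they were Rfc5 (0.977) and Esrp1 (0.974), for Cdkn2b Spats2 (0.886) and Fgd6 (0.884), for Cdkn2c its neighbour 9630013D21Rik (0.883) and Oprd1 (0.882), and for Cdkn2d Dcdc2a (0.868) and Tinf2 (0.867). These r include differences between the 4 groups, and r within groups was not computed.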

How the data were processed

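Bulk RNA of 15 mammary tumors and 3 normal glands was prepared with a stranded mRNA kit and sequenced paired-end. Per the study's methods, the authors trimmed reads with Cutadapt 1.18 and deposited expected counts per gene from RSEM 1.3.0, not normalized. The methods name a human reference, but all 55450 gene identifiers are those of mouse GENCODE M21 on GRCm38, which gave positions and lengths here. Whether counting used strand is not given in the sources used here, so genes that overlap on opposite strands are uncertain. Among the members these are Ccnd1 (with LTO1), Ccnd2 (Gm43126 and 9330179D12Rik), Ccnd3 (Bysl), Cdk4 (Tspan31) and Cdk6 (Gm17590 and Gm42435). Of the deposited values 5.61% were not whole and were rounded. All 162 values of the 9 genes were whole.

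Genes were filtered with edgeR 4.0.16 (filterByExpr, minimum count 10), scaled with TMM factors (0.788 to 1.11) and tested with its quasi-likelihood test in 1 fit of all 18 libraries, with 6 comparisons and Benjamini-Hochberg adjustment at 0.05. R 4.3.3, limma 3.58.1, DESeq2 1.42.0 and Python 3.11.15 served for the rest. Log2 CPM used a prior count of 2. Paralog ratios were compared by exact permutation tests, and relations across tumors by 100000 permutations within genotype. Other lists of genes are described by counts, and at most 2 called genes with the largest change are named per list and comparison. Ets2, for P/Rbf against B1/P tumors, and E2f6, against the glands, were named beyond this limit. The tests were checked on simulated data. Alternatives were DESeq2, limma-voom on quantile-normalized values, edgeR with no filter or no TMM, the study's filter (6 or more samples reaching a log2 CPM of 6), only the groups compared, a library-set term and the omission of each mouse. The 9 genes and the lists were chosen with earlier results of these data known.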

Additional observations from a re-analysis of the deposited data

Results flagged for a closer look

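In each of 45 sets of 5 tumors (the 9 genes and 6 ratios in 3 genotypes) the tumor farthest from the rest was compared with Dixon's limit for 5 values. Chance passes this limit in about 1 of 20 sets, and 4 sets passed it.

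B1/P/Rbf tumor 209490 held Ccnd1 at 93.6 CPM, far above the other B1/P/Rbf tumors at 21.8 to 31.8 CPM. Its Ccnd1/Ccnd2 log2 ratio of 2.69 and its Ccnd1/Ccnd3 log2 ratio of 0.58 stood apart in the same way, and all 3 values rest on the same Ccnd1 count. Some genes near Ccnd1 were also high in this tumor. Fgf15 had 204 CPM against 0.0325 to 0.432 in the other B1/P/Rbf tumors, and LTO1, which overlaps Ccnd1, had 41.4 CPM against 14.1 to 24.0. Gm26793 had 6.14 CPM against 0 to 0.135, while Ano1 at 309 CPM was close to the others at 109 to 292. High values were not confined to this region: Mtap, near Cdkn2a, had 159 CPM in this tumor against 35.4 to 48.2. These neighbours were looked at after the Ccnd1 value was seen.

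P/Rbf tumor 290860 held Ccnd2 at 58.7 CPM, above the other P/Rbf tumors at 11.2 to 16.6 CPM and below all B1/P tumors. The same tumor held a summed 1453 CPM of basal and myoepithelial markers, against 75.9 to 743 in the other P/Rbf tumors, and their part was not tested.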

How the results depend on the processing

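Across 360 member values under the 7 other settings, 323 kept their direction and side of the threshold, 16 came to pass, 10 no longer passed and 11 turned sign. Cdk6, Cdkn2b and Cdkn2d did not pass the study's filter and were not tested in that setting. With each of the 18 mice left out in turn, 918 of 972 member values kept both. Cdkn2a in the glands rests on 11 to 15 counts, and counting error was not separated from spread between mice. The cause of the changes was not tested.

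With the study's filter, which tests fewer genes, the genes called were 886 for B1/P/Rbf against B1/P, 866 for P/Rbf against B1/P, 3 between the T121 groups, and 1669, 1600 and 1760 for P/Rbf, B1/P and B1/P/Rbf against glands. Fits of only the groups compared called 2039, 1507 and 1 gene in the tumor comparisons. The library-set term called 2008 genes for P/Rbf against B1/P, 5 between the T121 groups and 3879 for B1/P/Rbf against glands, and left 3 of the 9 members called in the first and 3 in the last. Between the T121 groups DESeq2 called 1015 genes and voom 26, and omissions gave 9 to 131 (54 as reported, 131 without B1/P/Rbf tumor 209490). B1/P against glands gave 4320 to 6633 over omissions, 4320 without gland 330156.

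Members that turned sign were not called in the fit as reported. With the library-set term Cdk4 was 0.072 (B1/P/Rbf against B1/P) and 0.30 (T121 groups), Ccnd3 0.083 (P/Rbf against B1/P), Cdkn2d 0.18 (T121 groups) and Ccnd1 0.047 (B1/P/Rbf against glands). Cdk4 between the T121 groups was 0.080 without TMM, 0.20 with voom and 0.10 with the study's filter. Ccnd1 for P/Rbf against glands was -0.61 with voom and -0.28 with the study's filter, and Cdk6 there 0.11 without TMM. Over omissions, Cdk4 ran from -0.22 to 0.054 (B1/P/Rbf against B1/P), -0.23 to 0.12 (P/Rbf against B1/P) and -0.18 to 0.17 (T121 groups). Between the T121 groups Ccnd2 ran from -0.13 to 0.75, Cdk6 from -0.72 to 0.14, Cdkn2c from -0.027 to 0.41 and Cdkn2d from -0.58 to 0.054. Against glands, Ccnd2 and Cdkn2d in B1/P ran from -0.042 to 0.69 and -0.11 to 0.24, and Ccnd1 and Cdk6 in P/Rbf from -0.32 to 0.39 and -0.67 to 0.12.

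Of the log2 ratios, within 1 library set Ccnd1/Ccnd3 for P/Rbf against B1/P was -3.61, with an unadjusted exact p of 0.0476, the smallest that 5 against 2 tumors allow, against 0.0556 as reported. These p-values within a set were not adjusted, unlike the calls in the report. Cdk4/Cdk6 there was 2.13 with an unadjusted p of 0.143, and Cdkn2a/Cdkn2b and Cdkn2c/Cdkn2d for B1/P against glands were 4.46 and -2.91 with 2 tumors, too few to pass. Of 324 ratio values with a mouse left out, judged by unadjusted p, 283 kept direction and side, 23 no longer passed, 12 came to pass and 6 turned sign. Of the 13 ratios called with adjustment, Ccnd2/Ccnd3 for P/Rbf against glands was the one to miss an unadjusted 0.05, in 4 omissions (exact p = 0.0571). With adjustment over the 36 repeated, chosen after seeing the data, all 13 calls were lost in 17 of 18 omissions, and 6 held without B1/P tumor 246361. Omission of a gland also lost the calls between tumor groups, whose exact p it does not change, so these losses reflect the adjustment. Over omissions Ccnd1/Ccnd2 ran from -2.35 to -1.23 (T121 groups) and 1.55 to 2.12 (B1/P against glands). Ccnd1/Ccnd3 ran from -2.73 to -1.70 (P/Rbf against B1/P), -1.14 to -0.69 (B1/P/Rbf against glands), 2.03 to 3.03 (B1/P against glands) and -0.15 to 0.77 (P/Rbf against glands, -0.12 and -0.15 being the turned values). Ccnd2/Ccnd3 ran from 0.46 to 1.02 (T121 groups) and -3.08 to -2.52 (P/Rbf against glands). Cdk4/Cdk6 ran from -0.10 to 0.69 (T121 groups) and 1.31 to 2.09 (P/Rbf against glands), and Cdkn2a/Cdkn2b from 0.42 to 0.98 (P/Rbf against B1/P). Cdkn2c/Cdkn2d ran from 0.85 to 1.44 (B1/P/Rbf against B1/P), -0.040 to 0.64 (T121 groups), -2.03 to -1.44 (B1/P/Rbf against glands) and -2.34 to -1.76 (P/Rbf against glands). In the 10 T121 tumors r of Ccnd1 with Ccnd2 was -0.35 and that of Cdkn2a with Cdkn2b 0.683, which no longer passed.

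No paired analysis was possible because the labels give the mice no replicate numbers shared between groups, and numbers given in accession order pair nothing.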
